A study of Mus musculus with 6 samples.

Results

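The genes described here are 33 listed type I interferon-stimulated genes, found in the deposited array values as the probe sets whose gene symbol is one of the 33. Of these, 31 had a probe set of their own and 29 were bright enough to be tested, out of 18193 named and 10960 tested genes. Isg15 and Ifi44 were not analysed here: no probe set was named for Ifi44 in the annotation used, and the only one for Isg15 is also named for Gm9706. Ifit2 and Mx2 were below the brightness filter, a mean log2(signal + 16) of 5.90. The arrays held total RNA of neutrophils from mouse blood, 3 mice being wild type and 3 phd3 null, all on a C57 background and all cells kept for 4 h in hypoxia at 3% oxygen. Each mouse gave 1 sample by negative magnetic selection, which removes other cells and leaves what it misses. phd3, now named Egln3, encodes an oxygen-dependent prolyl hydroxylase. Whether the deletion was confined to any cell type is not given in the labels, and no interferon was named as given. Both groups had the same hypoxia, so the comparison is between genotypes within it.

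Type I interferons signal through the receptor chains Ifnar1 and Ifnar2 and the kinases Jak1 and Tyk2. The kinases activate Stat2, which acts with Irf9 in the factor ISGF3. ISGF3 binds the interferon-stimulated response element (ISRE), a pair of GAAA half-sites, and turns on genes that sense viral nucleic acid, cut or bind viral RNA, block virus entry and release, or tune the response itself. Neutrophils carry the receptor and can switch on these genes.

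The promoters of IFIT and OAS genes are shown first because these families are compared below. In the promoter table from RefSeq, build GRCm38.p6, 26 of the 33 genes had an entry, with none for Oas2, Mx1, Mx2, Usp18, Zbp1, Dhx58 and Parp14. Both strands of the 250 bases before each start were searched for GAAA, any 2 bases, GAAA. A match was present in 11 of 26 genes (42.3%), against 936 of 27025 genes with a promoter (3.46%). The gamma-activated site, searched as TTC, any 3 bases, GAA, was present in 6 of 26 (23.1%) against 8.13%. Both motifs were counted separately, so matches of each may overlap. Sequences run 5′ to 3′ on the gene's strand, with ISRE matches in capitals; on the reverse strand the core reads TTTC, 2 bases, TTTC. Ifit1 is shown over 200 bases because its 2 matches stand close together, and Ifit3, Oas1a and Oas3 over 30 bases around theirs.
Ifit1, chr19:34640689-34640888, plus strand: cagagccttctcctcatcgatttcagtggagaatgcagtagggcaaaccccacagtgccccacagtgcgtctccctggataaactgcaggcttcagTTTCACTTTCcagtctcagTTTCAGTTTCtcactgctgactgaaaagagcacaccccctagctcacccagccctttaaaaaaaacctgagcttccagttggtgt
Ifit3, first match, chr19:34583363-34583392, plus strand: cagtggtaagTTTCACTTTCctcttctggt
Ifit3, other match, chr19:34583397-34583426, plus strand: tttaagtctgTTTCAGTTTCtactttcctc
Oas1a, overlapping matches, chr5:120907526-120907555, minus strand: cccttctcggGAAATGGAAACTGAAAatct
Oas3, chr5:120777715-120777744, minus strand: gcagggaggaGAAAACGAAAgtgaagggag
Ifit1 and Ifit3 carried the same pair of cores, TTTCACTTTC and TTTCAGTTTC, in the same order. The promoters of Irf7 and Xaf1 held no match in this window. The median difference between genotypes was -0.22 over the 10 tested members with a match, 6 of them lower in phd3 null, and -0.10 over the 13 without, 8 of them lower. A match describes these letters only.

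The arrays carried MAS5 signal, and every difference below is phd3 null minus wild type in log2(signal + 16), with the standard error (SE) of the limma fit. Egln3, the targeted gene, read 87.2, 29.6 and 73.5 without phd3 and 2088, 1734 and 327 in the wild type. The arrays numbered 3 in each genotype stood apart from the other 4: summed B cell marker signal was 5500 and 4450 against 258 to 917, and the hypoxia-induced genes of the hypoxia and stress list carried its sum down to 5309 and 5520 against 18800 to 24970, while its heat shock gene Hspa1a was at 1158 and 1175 against 67.2 to 171. Neutrophil marker signal summed to between 24860 and 54390 over the 6 of 8 listed markers with a probe set. S100a8 was at 11103 or above in every sample, while Cxcr2 ran from 25.6 in phd3 null sample 3 to 979 in phd3 null sample 2. Monocyte and macrophage markers summed to 4761 and 5603 in samples numbered 3 and to between 17000 and 18460 in the others, with Csf1r at 3538 to 11088. Wild-type samples 2 and 3 also differed from the other 4 in the 2 tested sex-linked genes. Xist was at 1180 and 1061 against 72.9 to 292, and Eif2s3y at 54.0 and 38.7 against 144 to 585. Kdm5d, sex-linked but below the filter, did not follow this split. It was at 12.9, 33.1 and 63.8 in phd3 null and 96.5, 47.4 and 16.1 in wild-type samples. The labels give no sex, and with 1 wild-type sample like the phd3 null samples the part of sex in any difference between genotypes was not tested. Values are listed in order of sample number throughout, and same-numbered samples were taken as pairs. Because lists were chosen with results of these data known, lists are described by counts and medians with no p.

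None of the 29 tested members passed the test between genotypes after adjustment over all genes. The adjusted p was 0.9996 for every member in limma, and 0% of the 10960 genes passed. Egln3, the targeted gene, did not pass this fit either, at -3.85 (SE 0.65) with an adjusted p of 0.9996. The lack of a call therefore does not show that a member was unchanged. With the replicate number as a block 0.0182% of all genes passed, Egln3 among them (adjusted p 0.0014) and no member. The lowest adjusted p of a member with the block was 0.756, for Oas2. At an unadjusted p under 0.05, 1 member (Oas2) was reached in each fit, against 1.74% of all genes without the block and 5.62% with it. Without phd3 null sample 2 no member reached that level. In bulk RNA, fewer cells of a type and less RNA per cell cannot be told apart for any of these genes.

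The members' differences lay on both sides of 0. In phd3 null samples 18 of 29 (62.1%) were lower and 11 higher, against 50.6% of all genes lower. The members' median was -0.16 and their mean -0.09, beside a median of -0.01 over all genes. The range ran from -0.94 for Ifit3 to 1.28 for Oas2, and 10 of 29 lay more than 1 SE from 0, against 2923 of 10960. The pairs did not give one direction: the median was -0.20, 0.11 and -0.34 in pairs 1 to 3, with 19, 13 and 17 of 29 lower. Without pair 3, 12 of 29 were lower and the median was 0.11. Leaving out phd3 null sample 1 alone gave a median of 0.005, phd3 null sample 3 alone -0.052, and wild-type sample 3 alone -0.018; without wild-type sample 2 it was -0.29. Oas2, Irf7 and Parp14 were higher in all 3 pairs, as were 12.6% of all genes. Oasl1, Stat2, Usp18, Gbp3, Xaf1 and Trim25 were lower in all 3 pairs, as were 13% of all genes. Groups did not overlap for Oas2 and Irf7, with phd3 null higher (3.9% of all genes), and for Xaf1, with phd3 null lower (3.02% of all genes).

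**Figure D1:**
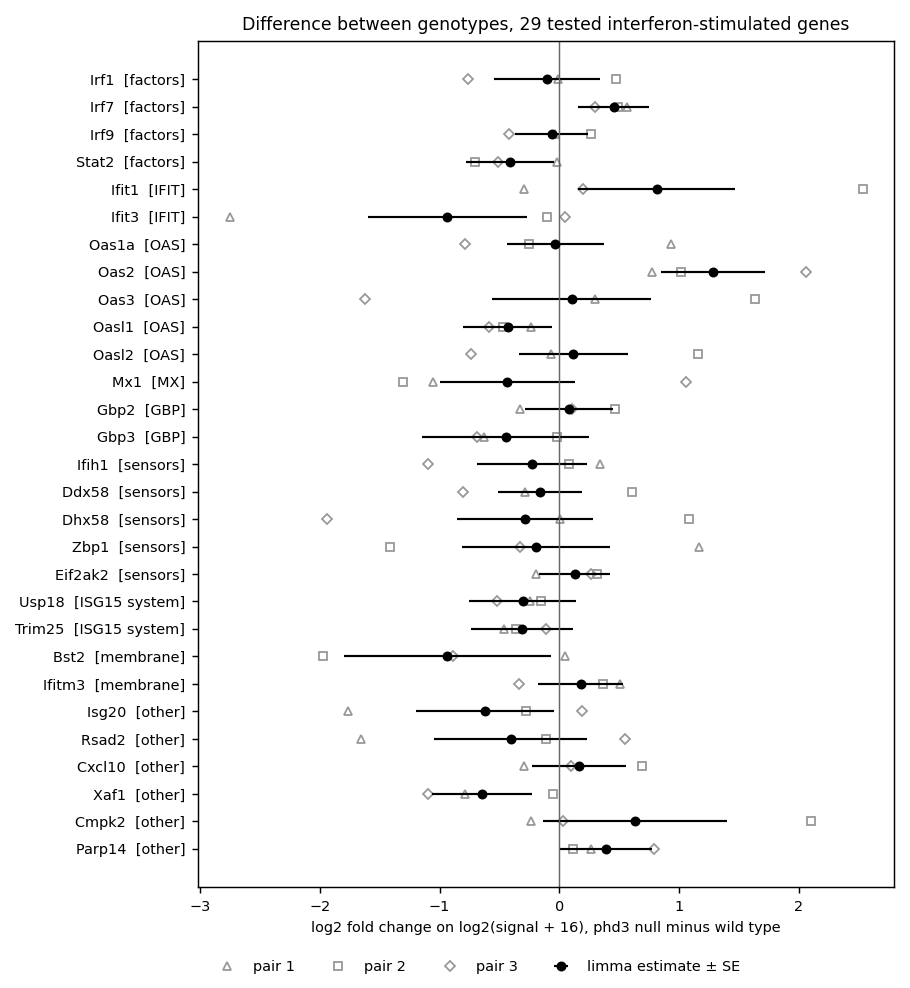
Difference between genotypes (phd3 null minus wild type, log2(signal + 16)) for each tested member, with families in brackets. Filled points and bars are the limma estimate ± SE, and open symbols are the differences within the 3 same-numbered pairs. The estimates spread from -0.94 to 1.28 around 0, with Oas2 at the upper end and Ifit3 and Bst2 at the lower.

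Among the transcription factors, Irf7, the main inducer of the interferon genes themselves, was the only 1 whose groups did not overlap. Its signal was 220.4, 254 and 249.7 in phd3 null and 143, 176 and 199.5 in wild-type samples. Every phd3 null sample was above every wild-type sample, and the difference was 0.45 (SE 0.30) without passing the test. Stat2, the ISGF3 subunit that carries the activating domain, had signals of 64.7, 63.9 and 72.7 in phd3 null and 65.7, 114 and 110.5 in wild-type samples. Wild-type samples 2 and 3 were above all phd3 null samples and wild-type sample 1 was not. That was the same split of samples as in Xist and Eif2s3y, whose part was not tested. The difference was -0.41 (SE 0.37). A dimmer probe set of Stat2, below the filter, did not show the split. There wild-type sample 3 (48.9) was below phd3 null samples 1 and 3 (62.5 and 65.9). Irf9, the DNA-binding subunit of ISGF3, differed by -0.06 (SE 0.30), with groups overlapping. Irf1, a factor that binds the same elements and answers strongly to interferon gamma, was at 452, 577 and 715 in phd3 null and 457, 412 and 1225 in wild-type samples. Wild-type sample 3 stood far above the other samples for Irf1, and the difference of -0.10 (SE 0.44) became 0.39 without it.

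The OAS family makes linked oligoadenylates from double-stranded RNA, which activate RNase L to cut RNA. By the brightest probe sets and with all arrays weighted equally, Oas2 had the largest difference of the tested members. With array quality weights Ifit1 (1.27) and Bst2 (-1.25) exceeded it (1.17). Without pair 3 Ifit3 (-1.43), Mx1 (-1.18), Ifit1 (1.12), Isg20 (-1.02), Oas3 (0.97), Bst2 (-0.96) and Cmpk2 (0.94) did (0.89). Without wild-type sample 1 Bst2 (-1.73) exceeded it (1.44). Without phd3 null sample 3 Bst2 (-1.61) and Ifit3 (-1.49) did (1.32), and without wild-type sample 3 Cmpk2 (1.25) and Ifit3 (-0.87) did (0.86). Oas2 signal was 129, 183 and 142 in phd3 null samples, a mean of 151 ± 28.4 (SD, n = 3). In wild-type samples it was 68.6, 82.6 and 21.8, a mean of 57.7 ± 31.8 (SD, n = 3). All 3 phd3 null samples were above all wild-type samples. The difference was 1.28 (SE 0.43; 95% interval 0.31 to 2.26), with an adjusted p of 0.9996 and an unadjusted p of 0.0153. The pair differences were 0.77, 1.01 and 2.06, the last of which went with the low wild-type sample 3; without that sample the difference was 0.86.

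The 4 other OAS members did not share this pattern. Oas3, the next gene to Oas2 on chromosome 5, had signals of 39.9, 101.9 and 33.5 in phd3 null and 29.5, 21.9 and 137 in wild-type samples. Its highest and its lowest values were both wild-type, and the difference was 0.10 (SE 0.67). Oas1a, a synthetase, was at 318, 252 and 126 in phd3 null and 159, 303 and 229 in wild-type samples, with a difference of -0.04 (SE 0.41; 95% interval -0.94 to 0.87). Neither group was the higher one for Oas1a, and the interval leaves room for differences near 0.9 either way. Oasl1, a relative without synthetase activity that limits Irf7 translation, was at 124, 62.4 and 69.7 in phd3 null and 149, 92.4 and 113 in wild-type samples. It was lower in phd3 null in each pair, with overlapping groups and a difference of -0.43 (SE 0.37). Its neighbour Oasl2 differed by 0.12 (SE 0.46).

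**Figure D2:**
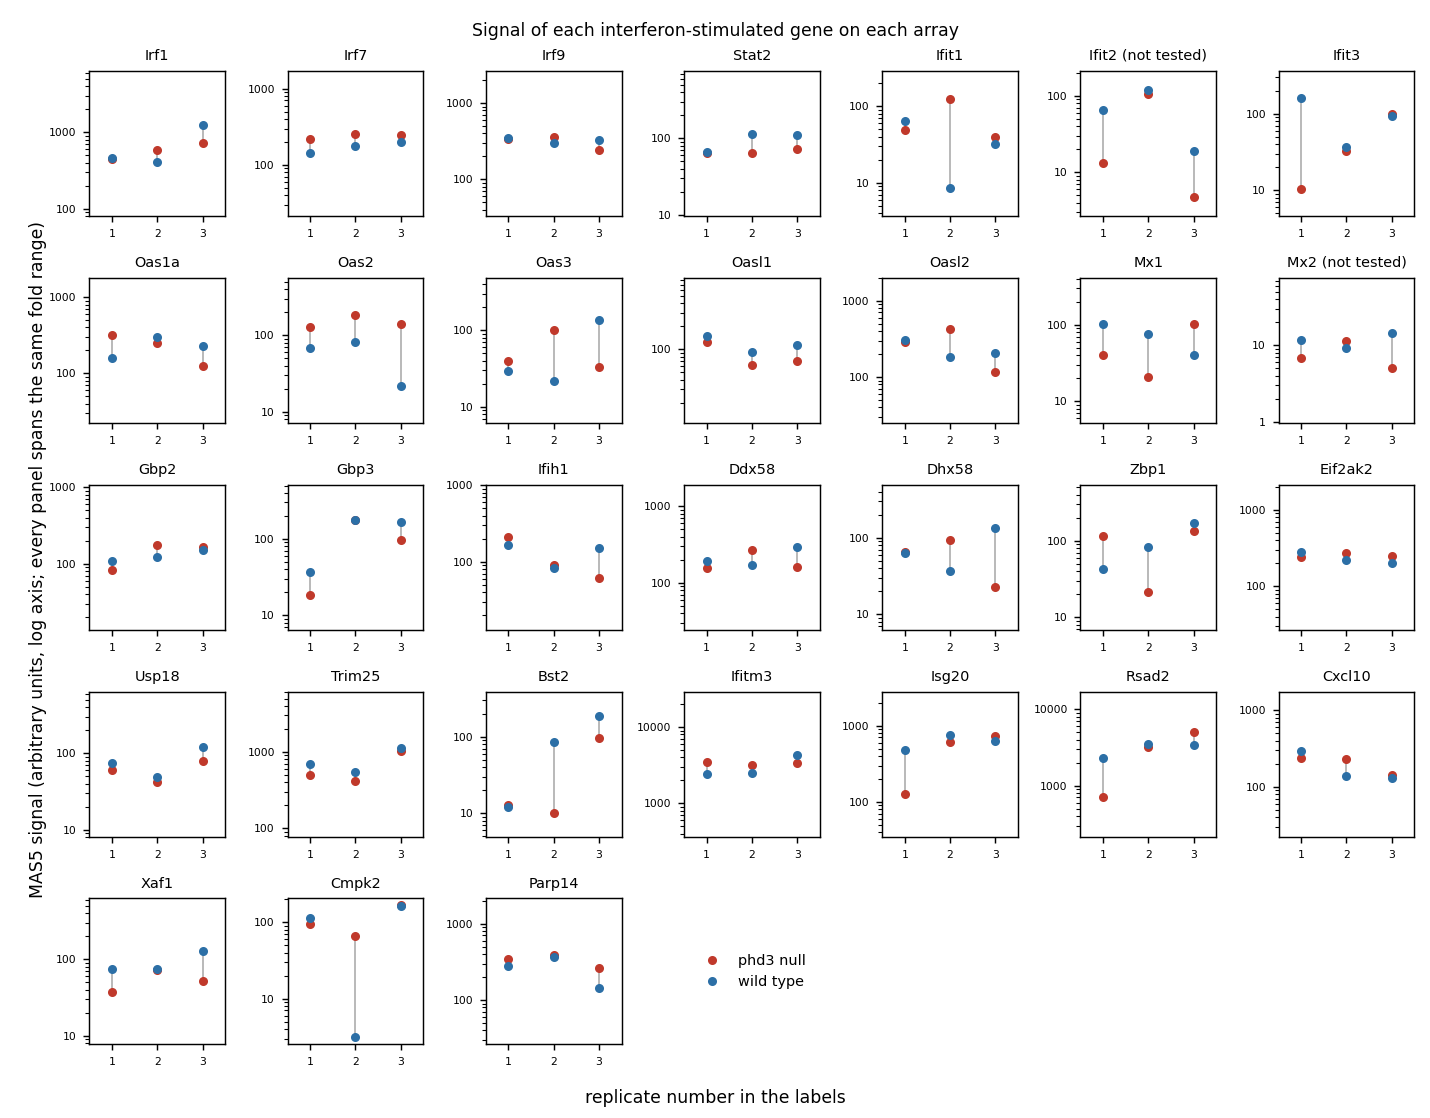
MAS5 signal (arbitrary units, log axis spanning the same fold range in every panel) of the 31 members with a probe set, by replicate number, phd3 null in red and wild type in blue, with a grey line joining same-numbered samples. All red points lie above all blue points for Oas2 and Irf7 and below them for Xaf1, while in the other tested genes the groups overlap.

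Of the IFIT proteins, Ifit1 binds viral RNA that lacks the host's cap methylation. Ifit1 and Ifit3, whose promoters held the same pair of ISRE cores, ranked the samples differently. Ifit1 signal was 49.3, 126 and 39.6 in phd3 null samples and 64.1, 8.5 and 32.5 in wild-type samples, a difference of 0.81 (SE 0.66). Ifit3 signal was 10.3, 33 and 98.3 in phd3 null samples and 162, 36.6 and 94.4 in wild-type samples, a difference of -0.94 (SE 0.67). Ifit1 was highest in phd3 null sample 2 and Ifit3 in wild-type sample 1, and the groups overlapped for both. The pair differences of the family mean were -1.53, 1.22 and 0.12. Ifit2, not tested, was at 13.1, 105.5 and 4.8 in phd3 null and 66.2, 118 and 18.7 in wild-type samples, highest in sample number 2 of each genotype.

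Guanylate-binding proteins are GTPases that attack membranes around intracellular pathogens. Gbp2 signal was 83.2, 176 and 166 in phd3 null and 109, 122.8 and 153 in wild-type samples, with a difference of 0.08 (SE 0.36). Gbp3 signal was 18.4, 175 and 97.5 in phd3 null and 37.2, 178 and 167 in wild-type samples, with a difference of -0.45 (SE 0.70). Gbp3 was low in sample number 1 of both genotypes, and the difference became 0.25 without phd3 null sample 1. MX proteins are dynamin-like GTPases that trap viral nucleocapsids; RefSeq lists Mx1 and Mx2 as transcribed pseudogenes in C57BL/6J. Mx1 signal was 40.7, 20.8 and 101.8 in phd3 null and 102, 75.1 and 40.5 in wild-type samples, lower in pairs 1 and 2 and higher in pair 3, with a difference of -0.43 (SE 0.56) that became -0.051 without phd3 null sample 2. Mx2 stayed between 5.1 and 14.3 in all 6 samples.

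By their brightest probe sets, the 5 sensors of foreign nucleic acid had differences smaller than their SE. Ifih1 (MDA5, a sensor of long double-stranded RNA) differed by -0.23 (SE 0.46) and Ddx58 (RIG-I, a sensor of RNA ends) by -0.16 (SE 0.35). Dhx58 (LGP2, a regulator of both) differed by -0.28 (SE 0.57), Zbp1 (a sensor of Z-form nucleic acid that can trigger necroptosis) by -0.19 (SE 0.62) and Eif2ak2 (PKR, which stops translation) by 0.13 (SE 0.30). A dimmer probe set of Ddx58, past the filter, differed by -0.80 (SE 0.51), and the mean of its probe sets by -0.36. Groups overlapped for all 5. The mean of the 5 differed by 0.21, 0.14 and -0.78 in pairs 1 to 3, so that pair 3 alone carried the lower mean. For Ifih1 the phd3 null signals were 213, 89.9 and 61.3 and the wild-type signals 165, 84.0 and 149.7.

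In the ISG15 system, with Isg15 itself not analysed, Usp18, which removes ISG15 and dampens the receptor, was at 61.0, 42.1 and 80.7 in phd3 null and 75.2, 48.8 and 122.6 in wild-type samples, a difference of -0.31 (SE 0.45; pairs -0.24, -0.16 and -0.52). Trim25, a ligase acting on RIG-I, was at 494, 419 and 1040.1 in phd3 null and 686, 544 and 1124 in wild-type samples, also a difference of -0.31 (SE 0.43; pairs -0.46, -0.36 and -0.11). The other 2 probe sets of Trim25 each differed by -0.001. The mean difference of Usp18 and Trim25, -0.31, ran from -0.59 without phd3 null sample 3 to -0.023 without wild-type sample 3, and was -0.55 without wild-type sample 2 and -0.088 without phd3 null sample 2. Each gene ranged more widely between samples than between genotypes. Of the membrane factors, Bst2 (tetherin, which holds budding virions) was at 12.9, 10 and 95.2 in phd3 null and 11.9, 85.9 and 190 in wild-type samples, a difference of -0.94 (SE 0.86) that became -0.56 without phd3 null sample 2, -0.29 on removing wild-type sample 3 and -1.73 on removing wild-type sample 1. Bst2 was highest in sample number 3 of each genotype, the samples in which B cell markers summed highest. Plasmacytoid dendritic cell markers also summed highest there, at 807 and 654 against 267 to 468. Single markers of that list differed, with Pacsin1 at 4.7 in phd3 null sample 3. The part of either cell type in the values of Bst2 was not tested. Ifitm3, which blocks virus fusion, was bright in all samples, at 2461 to 4284, with a difference of 0.18 (SE 0.35).

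Among other effectors, Rsad2 (viperin, which makes a chain-terminating nucleotide) was at 710, 3232 and 5052 in phd3 null and 2273, 3501 and 3444 in wild-type samples. Isg20, an exonuclease, was at 128, 617 and 727 in phd3 null and 473, 752 and 637 in wild-type samples. Both were far lower in phd3 null sample 1 than in any other sample. The differences were -0.41 (SE 0.64) for Rsad2 and -0.62 (SE 0.58) for Isg20, and without phd3 null sample 1 they were 0.42 and 0.13. NK cell markers, for which 7 of the 8 listed had a probe set, summed to 462, 2852 and 2207 in phd3 null samples and 1380, 5951 and 3260 in wild-type samples, lowest in phd3 null sample 1 as well. All 7 were lower in phd3 null samples by the fit, none past the test (adjusted p of at least 0.247 with the block). The part of NK cells in the values of Rsad2, Isg20 and Gbp3 was not tested.

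Cmpk2, a mitochondrial nucleotide kinase next to Rsad2, was at 94.2, 66.3 and 167 in phd3 null and 114, 3.1 and 163 in wild-type samples. Wild-type sample 2 was far below the rest, and the difference of 0.63 (SE 0.77) became -0.36 without it. Parp14, an ADP-ribosyltransferase, was higher in phd3 null in each pair by 0.39 on average (SE 0.38). Without wild-type sample 3, its lowest value, the difference was 0.035, and its dimmer probe set, below the filter, differed by -0.95. Cxcl10, a chemokine for activated lymphocytes, differed by 0.16 (SE 0.39), with phd3 null signals of 237, 229.8 and 141 and wild-type signals of 293, 137 and 131.

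Xaf1, an antagonist of an apoptosis inhibitor, gave opposite answers by its 2 probe sets. By the brighter one, signal was 37.1, 71.8 and 52.3 in phd3 null and 75.6, 74.9 and 129.8 in wild-type samples, all phd3 null samples below all wild-type samples, and the difference was -0.64 (SE 0.42). By the dimmer one, signal was 133, 73.3 and 72.9 in phd3 null and 10.6, 37.0 and 32.0 in wild-type samples, with all phd3 null samples above all wild-type samples and a difference of 1.38 (SE 0.54). Neither passed over 18078 probe sets, where 0 were called. Of the 11 members with several probe sets, 6 had probe sets that differed in sign: Cmpk2, Dhx58, Gbp2, Parp14, Xaf1 and Zbp1. The 3 probe sets of Rsad2 were all lower in phd3 null.

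**Figure D3:**
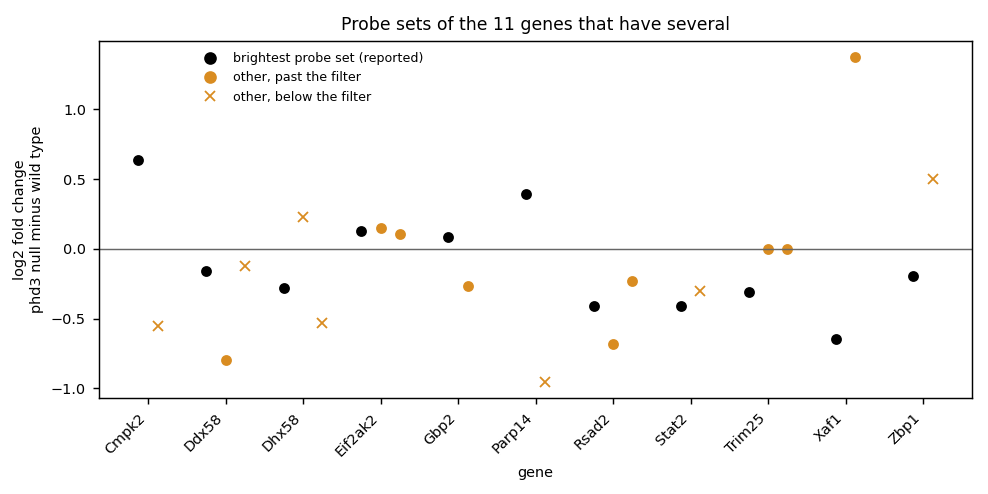
Log2 fold change (phd3 null minus wild type, log2(signal + 16)) of each probe set of the 11 members that have several. Black points are the brightest probe set of a gene, orange points others past the filter, and crosses others below it. The Xaf1 probe sets lie at -0.64 and 1.38, and those of Rsad2 lie on one side of 0.

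Set side by side over their tested members only, the OAS, IFIT and GBP families each had a mean difference smaller than its SD over pairs. The mean of the OAS genes differed by 0.21, with pair differences of 0.34, 0.62 and -0.34 and an SD of 0.49 over pairs. The IFIT mean, of 2 genes, differed by -0.06 with an SD of 1.38, and the GBP mean by -0.18 with an SD of 0.37. Leaving out 1 array turned 2 of these: the IFIT mean was 0.26 without phd3 null sample 1, 0.34 without wild-type sample 1 and -0.52 without wild-type sample 2, and the GBP mean was 0.02 without wild-type sample 3, 0.32 without phd3 null sample 1, and -0.54 with wild-type sample 1 or else phd3 null sample 2 removed. The OAS mean ranged from 0.041 without phd3 null sample 2 to 0.45 without phd3 null sample 3. In OAS the positive mean came with Oas2, since the other 4 members ranged from -0.43 to 0.12. Oas1b (-0.89) and Gbp7 (-0.70), tested but not members, were outside these family means. So were Oas1c (0.44) and Gbp6 (0.81), both below the filter. The mean over all 29 members was 7.27, 7.57 and 7.58 in phd3 null and 7.49, 7.35 and 7.84 in wild-type samples. Wild-type sample 3 was the highest of all arrays for 10 of 29 members (34.5%), against 18.9% of all genes.

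**Figure D4:**
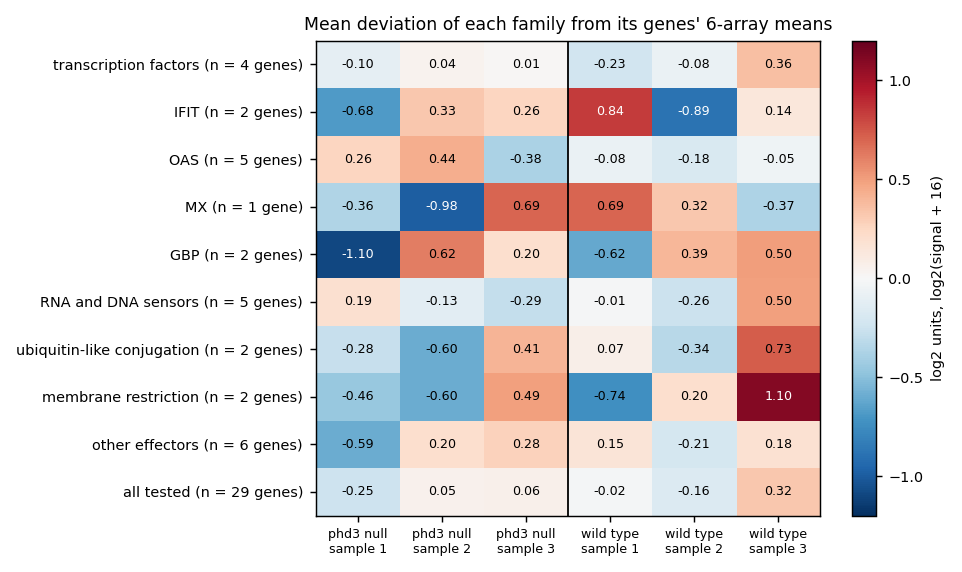
Heat map of the mean deviation of each family's tested members from their own means over the 6 arrays, in log2 units of log2(signal + 16), red above and blue below 0, with phd3 null samples left of the line and wild-type samples right of it. The families rank the arrays differently: IFIT is highest in wild-type sample 1 (0.84), OAS in phd3 null sample 2 (0.44), and GBP lowest in phd3 null sample 1 (-1.10).

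Genes around the programme gave no call either. In a list of receptor and signalling genes, 6 of the 9 tested lay above 0 and the median difference was 0.10. Smallest in p were the receptor chains Ifnar2 (0.36) and Ifnar1 (0.20), the phosphatase Ptpn11 (0.13) and the kinase Jak1 (0.11) on the higher side, and the kinase Tyk2 (-0.33), the inhibitor Socs3 (-0.37) and the interferon gamma receptor chain Ifngr1 (-0.17) on the lower. In a list of sensing genes upstream of interferon, 6 of 10 lay above 0, the median being 0.04; smallest in p were Ticam1 (0.74), Tlr9 (0.86), Traf6 (0.56) and Irf5 (0.27) on the higher side and Tlr7 (-0.50), Ikbke (-0.40), Myd88 (-0.16) and Tbk1 (-0.13) on the lower. Of 7 interferon genes 2 were tested, Ifna1 (0.42) and Ifng (0.38). Ifnb1, below the filter and so not tested, was at 96.2, 95.5 and 45.4 in phd3 null and 15.4, 3.1 and 38.7 in wild-type samples. Its groups did not overlap, with phd3 null higher. The share of such genes was 3.9% over the tested genes, which leave Ifnb1 out, and was not taken over genes below the filter. Ifna2 and Ifna4, also below the filter, had overlapping groups. Of 48 further interferon-stimulated genes tested, 26 lay above 0 and 22 below, the median being 0.03. Smallest in p were Ifi203 (1.18), Trim21 (0.68), Trim34a (0.49) and Ifi27 (0.53) on the higher side and Ifi35 (-0.64), Epsti1 (-0.73), Gbp7 (-0.70) and Oas1b (-0.89) on the lower. None of the tested genes of these lists passed in either fit (the lowest adjusted p of these lists in limma with the block was 0.828).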

How the data were processed

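Mouse blood neutrophils, 3 samples per genotype, were profiled on Affymetrix arrays. The deposited values are linear MAS5 signal intensities, as the submitters' processing notes name the tool. Its version was not given in the sources used, and detection calls were not used. The deposited trimmed means were 99.47 to 99.57 on every array. Of 45101 probe sets, 64 controls were left out, 34945 had 1 symbol, 932 several and 9160 none; those with several were not named. Names came from the platform annotation, and 18032 of 18193 genes matched the RefSeq table.

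Values were taken as log2(signal + 16), which understates changes of dim genes. A gene was its brightest probe set on average, and genes under the median of non-control probe sets (5.90, a signal of 43.6) were not tested. Genotypes were compared with limma (version 3.58.1, under R 4.3.3) by lmFit and eBayes with trend (two-sided, Benjamini-Hochberg over 10960 genes, threshold 0.05), without a block. The code was tested on simulated data. The p-values set each difference against the spread between mice, with each gene's variance moderated across genes. With the block that spread is what remains after the replicate number. Having 3 arrays per group limits the precision.

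Same-numbered samples share a code in the source label, so they were taken as pairs. Their deviations correlated at 0.292, 0.151 and 0.474 (other combinations -0.363 to 0.177). For phd3 null sample 2 the correlation was higher with wild-type sample 1 (0.177) than with wild-type sample 2 (0.151). All members with a probe set are named; from companion lists, those past the threshold, otherwise the 4 (or all, if fewer) of smallest p per direction, said not to pass. Ifnb1 was named after its values were seen, with Ifna2 and Ifna4 set beside it. The members and lists were chosen with earlier results of these data known. Alternatives varied the pseudocount, filter, normalization, probe set rule, trend, block, weights and arrays.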

Additional observations from a re-analysis of the deposited data

How the results depend on the processing

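With the replicate block 2 genes were called (Egln3 and Ptgr1), 1 without pair 3 (Egln3), and between 0 and 1 on leaving out 1 array; no member passed in any of the 15 alternatives, where the lowest adjusted p was 0.756. The block changed no member's call. Oas2 kept its direction, at 0.85 to 1.56. The members' median became 0.07 with array quality weights and 0.11 without pair 3, and ran from -0.29 to 0.005 on leaving out 1 array. In 12 of 29 members the direction was the same in all 15, but sizes moved: on leaving out 1 array Mx1 came to -0.051, Usp18 to -0.024, Trim25 to -0.023, Eif2ak2 to 0.036, Ifitm3 to 0.044 and Bst2 to -0.29. The direction reversed with array quality weights for Irf1 (0.055), Irf9 (0.071), Oas1a (0.078), Ddx58 (0.091) and Dhx58 (0.25). Without pair 3 it reversed for Irf1 (0.23), Irf9 (0.11), Oas1a (0.34), Ifih1 (0.21), Ddx58 (0.16) and Dhx58 (0.55). With the mean of a gene's probe sets it reversed for Gbp2 (-0.092), Xaf1 (0.37), Zbp1 (0.15) and Parp14 (-0.28). Leaving out 1 array in turn gave ranges of -1.05 to 0.13 for Isg20, -0.38 to 0.39 for Irf1, -0.17 to 0.11 for Irf9, -0.26 to 0.60 for Oasl2, -0.29 to 0.32 for Oas1a and -0.28 to 0.73 for Oas3. They were -0.98 to 0.42 for Rsad2, -0.67 to 0.11 for Ifih1, -0.39 to 0.052 for Ddx58, -0.023 to 0.51 for Cxcl10 and -0.091 to 0.39 for Gbp2. They were -1.05 to 0.25 for Gbp3, -0.60 to 0.45 for Zbp1, -0.36 to 1.25 for Cmpk2 and -0.64 to 0.14 for Dhx58. The cause was not tested. Signals near the filter, such as those of Ifit1, Bst2 and Oas3, lie where array precision is lowest, and without detection calls a low signal does not say whether a transcript was present.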
